A study of Mus musculus with 33 samples.

Results

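The genotype comparison in the CA1 region of the hippocampus of aged mice is described here, between vehicle-treated APP mice and vehicle-treated wild-type (WT) mice. Its members were the count libraries whose titles name them as vehicle-treated APP or vehicle-treated WT mice, 10 of the 33 samples in the series, with 6 in the APP group and 4 in the WT group. A further WT mouse, replicate 2, appears among the labels and was not analysed here, so the WT replicates are numbered 1, 3, 4 and 5. The APP mice belonged to a transgenic line on a C57B/6 background, which carries a mutant human APP (APPSw) beside a second mutant human gene, both driven by the Thy1 promoter in a form active mainly in neurons. The WT mice are WT by title, while their strain field names the APP line; their transgene genes, given below, were at a lower level than in every APP mouse. All 10 mice were 8 to 10 months old and received vehicle (10% DMSO) by intraperitoneal injection for 10 days. By the study's methods, females went through behavioural tests, and tissue was taken on the day after the last test of spatial memory. The comparison addresses which genes differ in the CA1 region of APP mice that received no JQ1, the drug given to other mice of the series. The statistical fit also held 6 JQ1-treated APP mice, 8 to 10 months old, which received 50 mg/kg JQ1 for 10 days.

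In the brain, amyloid deposits are surrounded by microglia, the resident phagocytes, which sense them through the receptor Trem2 and its signalling partner Tyrobp. Microglia at plaques take on a state known as disease-associated, in which genes for phagocytosis, lipid handling and lysosomal digestion, such as Cst7, Itgax and Clec7a, are induced, while homeostatic genes such as P2ry12 are often reduced. Astrocytes around deposits become reactive and make more of the filament protein Gfap. Neurons of the CA1 region hold the synapses on which spatial memory depends.

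Depth ran from 18329265 to 25339482 counted reads in the APP group and from 20283870 to 23829182 in the WT group, and 3 reads correspond to at most 0.164 CPM (reads scaled to the total of each library) in any of these libraries. Levels are given below as CPM scaled by TMM, first for WT replicates 1, 3, 4 and 5 in that order and then as the lowest, the median and the highest of the 6 APP mice. They are not corrected for gene length and are compared only between mice. A log2 fold change is that of APP over WT from edgeR's quasi-likelihood fit, and an adjusted p was adjusted over all 16962 genes tested. The value after ± is a standard error worked back from the fold change and the F statistic of its test. The 95% intervals of log2 fold changes rest on it, and it is rough for genes with few reads. Pairs of libraries correlated at 0.972 to 0.992 across genes within the APP group and at 0.982 to 0.996 within the WT group. The 6 JQ1-treated APP mice in the fit share in the estimate of the spread. Of these, the library labelled APP JQ1 replicate 4 went against its label, with Thy1 at 820 CPM and Cst7 at 0 CPM, where the other 5 JQ1-treated mice had Thy1 between 1618 and 2070 CPM. The counts are therefore given with and without that library. WT replicate 4 stood apart by the choroid plexus marker Ttr, at 3065 CPM against at most 21.3 CPM in the other WT mice, and WT replicate 1 by the summed CA3 markers, at 263 CPM against 97.1 to 106 CPM.

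Thy1 separated the groups. Thy1, whose regulatory sequence drives both transgenes, was at 841, 968, 951 and 1070.3 CPM in WT mice and at 1890.3, 1913 and 2342 CPM in APP mice (log2 fold change 1.10 ± 0.18, adjusted p = 0.00828). Every APP mouse was above every WT mouse for Thy1, and its call held when any 1 of the 10 libraries was left out. App, the precursor of amyloid-β, was at 1973, 1869, 1853 and 1992 CPM and at 2253, 2434 and 2716 CPM, again without overlap, with a log2 fold change of 0.36 ± 0.10. Its adjusted p of 0.0519 did not pass the threshold of 0.05, and it was 0.0242 without the library labelled APP JQ1 replicate 4. How many reads of the human transgenes aligned to the mouse genes, and so how far these values give the transgene's level, was not tested.

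**Figure D1:**
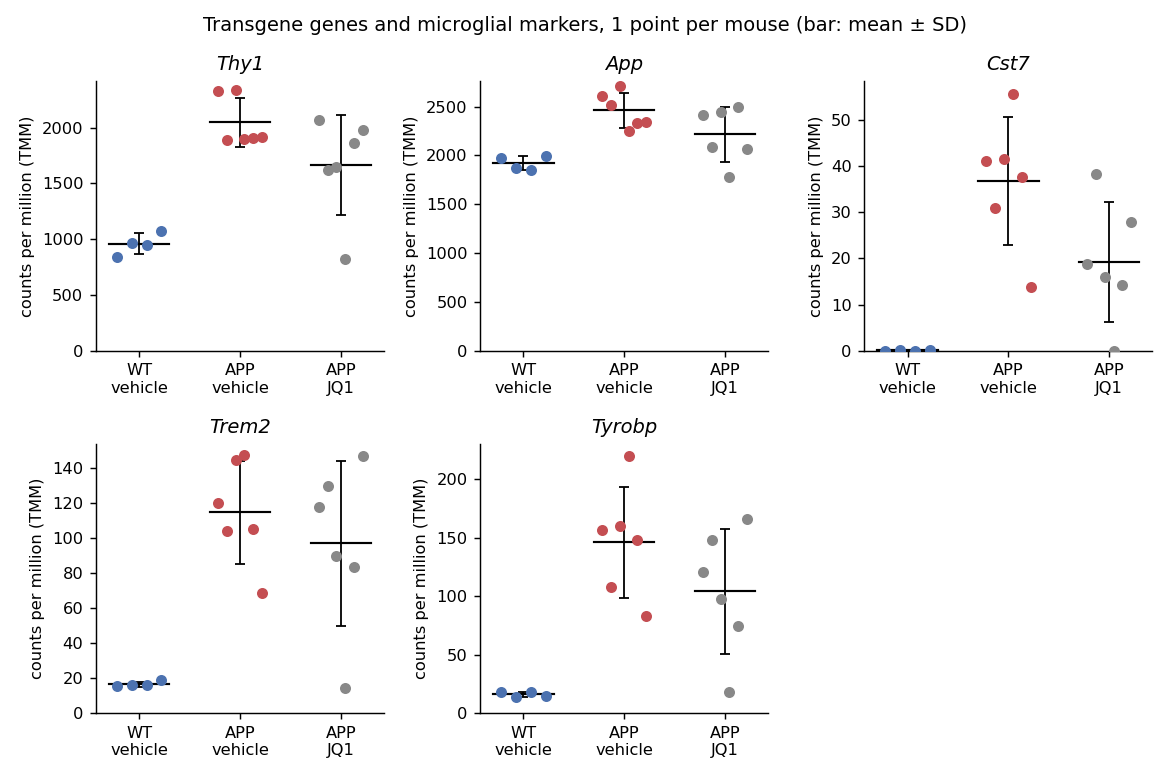
CPM (TMM-scaled) of Thy1, App, Cst7, Trem2 and Tyrobp, with 1 point per mouse, the mean as a line and the SD as an error bar, in vehicle-treated WT, vehicle-treated APP and JQ1-treated APP mice. All 6 vehicle-treated APP mice lie above all 4 WT mice in each panel, and 1 point of the JQ1 group, the library labelled replicate 4, lies at the WT level.

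Of 16962 genes tested, 436 passed the threshold, which is 2.57% of them. Of these, 422 were higher in APP mice (2.49% of genes tested) and 14 were lower (0.0825%), so that 96.8% of the calls were rises. In 414 of the 436 the CPM of the groups did not overlap, while over all genes tested 4.94% lay wholly above and 2.05% wholly below the WT range. The median rise among the calls was 1.56 on the log2 scale and the median fall was -0.47, and 340 rises but 1 fall went beyond a 2-fold change. Without the library labelled APP JQ1 replicate 4, 563 genes were higher (3.32%) and 38 were lower (0.224%). With only the vehicle-treated groups in the fit 617 were higher and 62 lower, and leaving out any 1 WT mouse left between 154 (without replicate 1) and 244 calls (without replicate 4), with 186 without replicate 3 and 214 without replicate 5. APP replicate 6 was the lowest of the APP mice in 306 of the 422 rises (72.5%), against 13.9% of all genes tested. In bulk tissue, more cells of a type and more RNA per cell cannot be told apart.

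**Figure D2:**
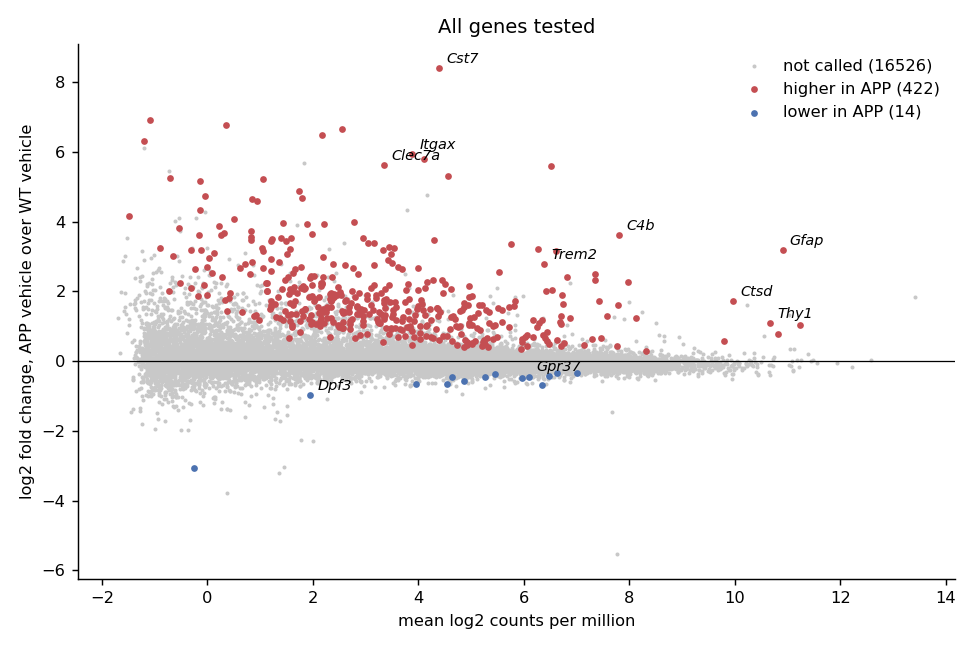
Log2 fold change of APP over WT vehicle-treated mice against the mean log2 CPM, with 1 point for each of 16962 genes. The 422 genes called higher (red) reach a log2 fold change of 8.40 at Cst7, and the 14 called lower (blue) lie close to 0 except Calml4.

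The defining markers of the microglial response rose in all APP mice. Cst7, which encodes cystatin F, an inhibitor of lysosomal cysteine proteases, lies at chr2:150570415-150578944 of mm10 and was at 0, 0.244, 0.0422 and 0.127 CPM in WT mice, a total of 9 reads, and at 13.7, 39.4 and 55.6 CPM in APP mice (log2 fold change 8.40 ± 1.25, adjusted p = 0.00828). Trem2, the lipid-sensing receptor (chr17:48346401-48354147), was at 15.4, 16.4, 16.02 and 18.9 CPM and at 68.6, 113 and 147 CPM (log2 fold change 2.78 ± 0.47, adjusted p = 0.00828). Tyrobp, the adaptor through which Trem2 signals (chr7:30413760-30417585), was at 17.98, 13.6, 17.96 and 15.1 CPM and at 83.4, 153 and 220.03 CPM (log2 fold change 3.17 ± 0.49, adjusted p = 0.00828). For all 3 genes APP replicate 4 was the highest and APP replicate 6 the lowest, and even replicate 6 was above every WT mouse. Their calls held with any 1 library left out. The exact two-sided permutation test of the 6 against the 4 mice gave p = 0.00952 for each, the smallest it can give here. Any gene whose groups do not overlap reaches this p, so the test adds nothing to the lack of overlap.

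Promoters of genes that rose are shown because such genes moved together, as the 250 bases upstream of the RefSeq start on GRCm38.p6, on the gene's strand. Letters in capitals mark a match to GAGGAAGT, a core bound by the myeloid factor PU.1, or to TCACGTGA, an E-box found in promoters of lysosomal genes, on either strand, which do not overlap each other. Cst7 (chr2:150570165-150570414, plus strand) and Trem2 (chr17:48346151-48346400, plus strand) hold neither in this window, and Tyrobp was not in the sequence table. Ctsd (chr7:142387828-142388077, minus strand) and Inpp5d (chr1:87620062-87620311, plus strand) were added, after values were seen, as a lysosomal and a myeloid gene called higher that hold a match.
Cst7: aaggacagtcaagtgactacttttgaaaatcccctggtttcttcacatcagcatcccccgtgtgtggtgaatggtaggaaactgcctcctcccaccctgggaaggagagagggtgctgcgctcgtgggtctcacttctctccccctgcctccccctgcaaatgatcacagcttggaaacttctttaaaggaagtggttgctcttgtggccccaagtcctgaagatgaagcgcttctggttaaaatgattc
Trem2: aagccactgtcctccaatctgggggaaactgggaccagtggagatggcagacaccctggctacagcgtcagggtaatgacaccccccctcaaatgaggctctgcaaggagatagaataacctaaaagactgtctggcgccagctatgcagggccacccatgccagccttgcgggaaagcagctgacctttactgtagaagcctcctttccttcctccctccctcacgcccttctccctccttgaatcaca
Ctsd: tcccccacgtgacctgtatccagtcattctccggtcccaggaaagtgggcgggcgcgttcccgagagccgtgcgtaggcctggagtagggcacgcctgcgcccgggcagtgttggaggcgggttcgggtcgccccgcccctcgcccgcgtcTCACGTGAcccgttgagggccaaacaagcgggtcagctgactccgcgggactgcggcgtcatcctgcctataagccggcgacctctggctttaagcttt
Inpp5d: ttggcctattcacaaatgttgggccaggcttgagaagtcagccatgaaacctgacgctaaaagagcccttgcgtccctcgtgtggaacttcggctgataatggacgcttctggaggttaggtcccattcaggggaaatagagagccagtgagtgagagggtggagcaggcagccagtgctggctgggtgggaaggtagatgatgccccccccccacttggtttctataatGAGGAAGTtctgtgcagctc
Of 12443 tested genes with such a promoter in the table, GAGGAAGT was found in 2.19%, and of the 313 genes called higher with one, in 16 (5.11%). It was in 3 of 29 promoters of the myeloid receptor list (Fcgr4, Inpp5d and Vav1) and in 1 of 23 of the disease-associated list (Spp1). TCACGTGA was in 1.41% of the promoters of tested genes, in 0.96% of those called higher and in 4 of 78 (5.13%) of the lysosomal lists, namely Atp6v1a, Ctsd, Gla and Mcoln1. These shares are descriptions of letters, not of binding.

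Disease-associated microglia genes rose for the most part. Of 28 tested, 22 rose, against 2.49% of all genes, and none fell. All 28 had a positive log2 fold change, with a median of 2.16 against 0.01 over all genes tested. Their summed level ran from 5116 to 5223 CPM in WT mice and from 6763 to 11265 CPM in APP mice. The sum includes Apoe, also in the list of lipid transport, and Ctsd, also in that of lysosomal proteases, whose levels are given below. How much of it came from cells other than microglia was not tested. Itgax, which encodes CD11c, was at 0.299, 0.391, 0.506 and 0.422 CPM in WT mice and at 8.999, 28.3 and 37.3 CPM in APP mice (log2 fold change 5.93 ± 0.87, adjusted p = 0.00828). Clec7a, the receptor dectin-1, was at 0.349, 0.147, 0.590 and 0.127 CPM and at 6.50, 15.1 and 23.3 CPM (log2 fold change 5.62 ± 0.92, adjusted p = 0.00828). For both genes the groups were far apart, with the lowest APP mouse more than 10 times the highest WT mouse. Among the smallest p-values of the list were those of the chemokines Ccl4 (0.149, 0.147, 0.0422 and 0.0845 CPM in WT, 2.08, 2.48 and 3.51 CPM in APP mice; log2 fold change 4.604 ± 0.65, adjusted p = 0.00662) and Ccl3 (0.249, 0.342, 0.127 and 0.0845 CPM and 3.71, 4.48 and 8.08 CPM; log2 fold change 4.68 ± 0.73, adjusted p = 0.00828). B2m, the light chain of MHC class I, rose from 69.98, 56.2, 80.8 and 65.7 CPM to 133, 228 and 309.9 CPM (log2 fold change 1.74 ± 0.27, adjusted p = 0.00828). None of these 5 had overlapping groups, and all kept their calls with any 1 library left out. Without WT replicate 1, 14 members of the list were called. The members without a call were Spp1, Ctsl, Cd63, Fth1, Timp2 and Lpl. Spp1, which encodes osteopontin, had 2.69, 4.16, 3.88 and 2.91 CPM in WT mice and 6.33, 10.3 and 64.6 CPM in APP mice (log2 fold change 2.49 ± 0.66, adjusted p = 0.0686), and its highest value, in APP replicate 1, stood far above the next.

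The largest rises with no overlap between the groups were Cst7, Cd200r4, Dcstamp, Gm49339, Klrb1b, Itgax, Ctse, Clec7a, Cd74, H2-Aa, Cd300lb and Cd22. Several rested on very few WT reads. Cd200r4, a member of the CD200 receptor family, had 1 read in the 4 WT libraries and 0.356, 2.11 and 2.78 CPM in APP mice, a pooled ratio of 167 (95% counting interval 29.7 to 6620). Klrb1b, a lectin-like receptor, had no read in WT mice and 0.132, 0.463 and 0.900 CPM in APP mice, so that it was at least 14.2-fold higher against a floor of 3 reads over the WT group. Cd300lb had 1 WT read and 0.0891, 0.566 and 1.46 CPM in APP mice, a ratio of 57.2 (10.0 to 2290 from counting error alone). These intervals cover counting error only. Dcstamp, a membrane protein required for the fusion of phagocytes, was at 0.0996, 0.147, 0.127 and 0 CPM and at 1.51, 9.66 and 17.7 CPM (log2 fold change 6.65 ± 1.14, adjusted p = 0.00871). Ctse, the aspartic protease cathepsin E, was at 0.647, 0.782, 0.211 and 0.422 CPM and at 6.01, 28.2 and 44.8 CPM (log2 fold change 5.79 ± 0.997, adjusted p = 0.00879). Cd22, an inhibitory sialic acid receptor, was at 0.0996, 0.147, 0.0422 and 0.0422 CPM and at 1.07, 3.53 and 4.25 CPM (log2 fold change 5.22 ± 0.83, adjusted p = 0.00828), and Gm49339 at 0.0498, 0.0489, 0.127 and 0.0422 CPM and at 2.09, 7.47 and 8.96 CPM (log2 fold change 6.49 ± 1.08, adjusted p = 0.00828). Among all 12 the lowest APP mouse was replicate 6, except for Klrb1b (replicate 5) and H2-Aa (replicate 2). The calls of Klrb1b and Cd300lb were lost without any 1 of the 4 WT mice, that of Klrb1b also without APP replicate 3 or 4, with adjusted p up to 0.0804 and 0.0881.

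Homeostatic microglia genes rose in part. Of 21 tested, 10 rose, against 2.49% of all genes, and none fell, with a median log2 fold change of 0.81. The summed level ran from 1928 to 2205 CPM in WT mice and from 2759 to 4089 CPM in APP mice. Cst3, also in the list of proteases and cystatins, made up 1122 to 1362 CPM of this sum in WT mice. In APP mice it made up 1611 to 2384 CPM. Cx3cr1, the fractalkine receptor, rose from 37.4, 38.2, 47.3 and 43.1 CPM to 84.8, 94.3 and 108 CPM (log2 fold change 1.18 ± 0.23, adjusted p = 0.0103). The lowest APP mouse was well above the highest WT mouse. Olfml3, a secreted protein of resting microglia, had 7.17, 8.17, 9.57 and 8.53 CPM and 14.5, 19.5 and 34.2 CPM (log2 fold change 1.33 ± 0.27, adjusted p = 0.0103), and Cst3, cystatin C, 1362, 1162, 1122 and 1142 CPM and 1611, 2178 and 2384 CPM (log2 fold change 0.78 ± 0.16, adjusted p = 0.0118). The call of Olfml3 was lost without WT replicate 1 (adjusted p = 0.0604), that of Cx3cr1 without WT replicate 1 or 3 (up to 0.0622), and that of Cst3 without WT replicate 3, 4 or 5 (up to 0.0562). P2ry12, the purinergic receptor of resting microglia, did not pass, with 48.4, 45.3, 44.5 and 48.8 CPM in WT mice and 42.4, 54.4 and 77.1 CPM in APP mice and an interval for its log2 fold change of -0.03 to 0.56. Tmem119 had 17.4, 23.96, 25.6 and 25.8 CPM and 23.4, 32.6 and 37.1 CPM, and an interval of 0.12 to 0.79.

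Myeloid receptors and signalling genes rose almost as a whole. Of 42 tested, 39 rose, against 2.49% of all genes, and none fell, and the median log2 fold change was 1.79. In each of the 42 all APP mice were above all WT mice, against 4.94% of all genes. The 3 without a call, Was, Fcgr4 and Cd33, had log2 fold changes of 1.44, 3.24 and 0.79, and the first 2 passed without the library labelled APP JQ1 replicate 4. Cd14, a co-receptor for bacterial lipids, was at 2.64, 2.05, 1.69 and 2.07 CPM in WT mice and at 5.84, 16.7 and 21.9 CPM in APP mice (log2 fold change 2.90 ± 0.43, adjusted p = 0.00828). Itgb5, the integrin β5 chain, was at 36.3, 37.6, 41.7 and 39.96 CPM and at 64.6, 91.6 and 101 CPM (log2 fold change 1.18 ± 0.18, adjusted p = 0.00828). These held with any 1 library left out. Spi1, which encodes PU.1 itself, was at 2.24, 2.98, 3.42 and 2.999 CPM and at 5.61, 10.99 and 11.7 CPM (log2 fold change 1.78 ± 0.35, adjusted p = 0.00981), and Inpp5d, the phosphatase SHIP1, at 9.86, 13.8, 12.6 and 14.2 CPM and at 28.4, 40.5 and 45.04 CPM (log2 fold change 1.61 ± 0.32, adjusted p = 0.0111), and both calls were lost without WT replicate 1 (adjusted p = 0.0526 and 0.0687). APP replicate 6 was the lowest of the APP mice in 33 of the 39 genes called.

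**Figure D3:**
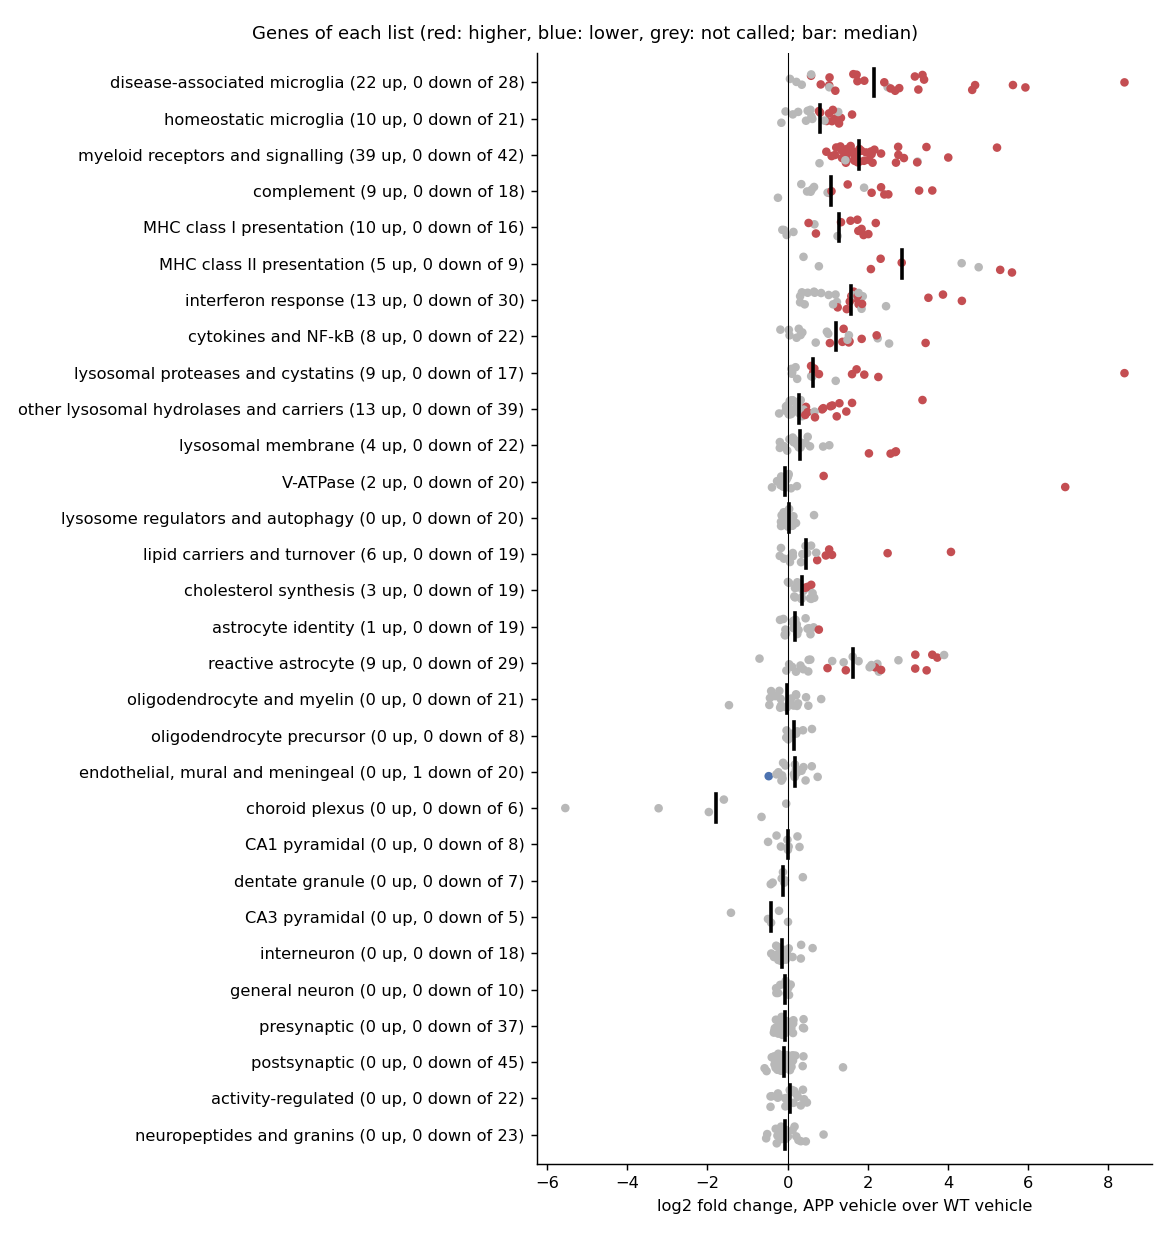
Log2 fold change of APP over WT vehicle-treated mice for each tested gene of 30 lists, red where called higher, blue where called lower and grey where not called, with the median of each list as a bar. The medians of the microglia and immune lists and of the lysosomal proteases, hydrolases and membrane proteins lie to the right of 0, that of the proton pump (V-ATPase) lies at -0.06, and no gene of the neuronal and synaptic lists is called.

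Complement genes, which tag synapses and debris for removal, rose in 9 of 18 tested, against 2.49% of all genes. None fell, and the median log2 fold change was 1.07. C4b was at 28.5, 26.9, 31.2 and 24.1 CPM in WT mice and at 187, 344 and 449.7 CPM in APP mice (log2 fold change 3.61 ± 0.55, adjusted p = 0.00828), and reads of its near copy C4a may be split from it. C1qa and C1qb, chains of the molecule that starts the classical pathway, were at 38.9, 37.5, 41.4 and 48.5 and at 45.7, 42.4, 47.6 and 47.2 CPM in WT mice. In APP mice C1qa was at 106, 224 and 335 CPM (log2 fold change 2.51 ± 0.43, adjusted p = 0.00879) and C1qb at 119, 223 and 323 CPM (log2 fold change 2.33 ± 0.39, adjusted p = 0.00828). C3ar1, the receptor of the C3a fragment, had 1.39, 1.56, 1.60 and 1.56 CPM and 9.31, 14.4 and 21.2 CPM (log2 fold change 3.28 ± 0.60, adjusted p = 0.00959). All APP mice were above all WT mice for these 4, and only C3ar1 lost its call with a library left out (WT replicate 1, adjusted p = 0.0526).

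Antigen presentation genes rose for both classes. For MHC class I, 10 of 16 rose, against 2.49% of all genes, and none fell, with a median log2 fold change of 1.29. The summed level of this list overlapped between the groups, from 1076 to 1353 CPM in WT mice and from 1206 to 1688 CPM in APP mice. H2-K1 was at 22.8, 22.8, 22.7 and 24.1 CPM in WT mice and at 34.1, 61.7 and 104 CPM in APP mice (log2 fold change 1.57 ± 0.26, adjusted p = 0.00828), and H2-D1 at 27.8, 29.8, 32.6 and 35.5 CPM and at 60.9, 112 and 207 CPM (log2 fold change 2.01 ± 0.36, adjusted p = 0.00922), both being classical heavy chains whose near copies may share reads. Psmb8, a subunit of the immunoproteasome, was at 3.59, 2.25, 2.91 and 2.15 CPM and at 5.84, 9.74 and 15.1 CPM (log2 fold change 1.89 ± 0.37, adjusted p = 0.00993). Groups did not overlap for any of the 3, and the lowest APP mouse was replicate 6 and the highest replicate 5. The call of H2-D1 was lost without WT replicate 1 (adjusted p = 0.0519) and that of Psmb8 without WT replicate 3 (adjusted p = 0.0516).

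For MHC class II, 5 of 9 rose, against 2.49% of all genes, and none fell, with a median of 2.85. The APP mice differed widely among themselves, since the summed level was 25.7 times the WT mean in replicate 3 and 21.9 times in replicate 5, but between 2.99 and 7.56 times in the other 4. Cd74, the invariant chain, was at 2.59, 3.28, 6.37 and 2.11 CPM in WT mice and at 35.3, 87.4 and 434 CPM in APP mice (log2 fold change 5.60 ± 1.22, adjusted p = 0.0272), and its call was lost without any 1 of the WT mice (adjusted p up to 0.114). H2-Aa, the α chain, was at 0.498, 1.47, 2.28 and 0.338 CPM and at 8.71, 20.5 and 119.6 CPM (log2 fold change 5.30 ± 1.27, adjusted p = 0.0442), and H2-DMb1, which loads peptides, at 0.598, 0.929, 1.64 and 1.14 CPM and at 3.03, 4.07 and 6.81 CPM (log2 fold change 2.08 ± 0.51, adjusted p = 0.0364). Both calls were lost without any 1 of the WT mice or of APP replicates 1, 3, 4 and 5, with adjusted p up to 0.163 and 0.158. H2-Oa and H2-Ob, chains of a modulator of peptide loading, varied less, at 0.847, 0.734, 0.379 and 0.338 and 0.299, 1.03, 0.801 and 0.929 CPM in WT mice. In APP mice they were at 2.03, 3.16 and 6.97 CPM (log2 fold change 2.85 ± 0.55, adjusted p = 0.00922) and at 2.45, 3.89 and 5.09 CPM (log2 fold change 2.32 ± 0.47, adjusted p = 0.0103), and the call of H2-Ob was lost without WT replicate 1 (adjusted p = 0.0526).

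Interferon response genes rose in 13 of 30 tested, against 2.49% of all genes, and none fell. All 30 had a positive log2 fold change and the median was 1.57. Without the library labelled APP JQ1 replicate 4, 20 of the 30 passed, against 3.32% of all genes called higher, and this was the largest gain of any list. Irf7, a transcription factor of the response, was at 1.29, 0.978, 1.60 and 1.65 CPM in WT mice and at 2.72, 4.87 and 7.71 CPM in APP mice (log2 fold change 1.84 ± 0.31, adjusted p = 0.00828). Ifi44 was at 0.299, 0.0489, 0.295 and 0.169 CPM and at 0.668, 2.24 and 4.38 CPM (log2 fold change 3.51 ± 0.68, adjusted p = 0.00981). For Ifit1 and Ifit3, which bind foreign RNA or act with proteins that do, the WT values were 0.647, 1.03, 1.31 and 1.01 CPM and 3.04, 2.79, 3.54 and 2.999 CPM, and the APP values 1.35, 3.43 and 4.81 CPM and 6.52, 8.23 and 12.2 CPM. None of the 4 overlapped between groups, and APP replicate 3 was the highest in all of them. The log2 fold changes were 1.74 ± 0.35 (adjusted p = 0.0100) for Ifit1 and 1.47 ± 0.30 (adjusted p = 0.0107) for Ifit3, and without WT replicate 1 their adjusted p was up to 0.0551 and 0.0545, the latter call being lost also without WT replicate 3.

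Cytokine and NF-kB genes rose in 8 of 22 tested, against 2.49% of all genes, with none falling, at a median log2 fold change of 1.21. Tnfrsf1b, a receptor of tumour necrosis factor, was at 2.99, 2.40, 2.82 and 2.91 CPM in WT mice and at 4.81, 7.28 and 10.3 CPM in APP mice (log2 fold change 1.40 ± 0.26, adjusted p = 0.00839). Pycard, the adaptor of inflammasomes, was at 2.09, 2.05, 2.53 and 3.25 CPM and at 5.75, 8.91 and 12.9 CPM (log2 fold change 1.85 ± 0.34, adjusted p = 0.00879). Tgfb1, a growth factor that sustains microglia, was at 3.34, 3.81, 3.50 and 3.63 CPM and at 7.66, 9.31 and 10.6 CPM (log2 fold change 1.37 ± 0.26, adjusted p = 0.00879). In each of these 3 the groups did not overlap and the call held with any 1 library left out. Cxcl16, a chemokine, had 0.747, 1.12, 1.56 and 1.44 CPM and 2.81, 6.49 and 6.78 CPM (log2 fold change 2.22 ± 0.47, adjusted p = 0.0138) and lost its call without WT replicate 1 or 3 (adjusted p up to 0.0759).

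Lysosomal genes rose by class of protein. Over the 4 lists of proteases, other hydrolases, membrane proteins and the proton pump, 28 of 98 tested genes rose, against 2.49% of all genes. None fell and the median log2 fold change was 0.24, and 50 of the 98 had an unadjusted p under 0.05, against 14.4% of all genes tested. Without WT replicate 1, 17 rose. Proteases and cystatins led, with 9 of 17 higher and a median of 0.64, and the summed level ran from 2873 to 3254 CPM in WT mice and from 4291 to 6718 CPM in APP mice. Ctsd, the aspartic protease cathepsin D, was at 391, 360.1, 409 and 396 CPM in WT mice and at 837, 1314 and 1581 CPM in APP mice (log2 fold change 1.72 ± 0.29, adjusted p = 0.00828). Ctss, cathepsin S, which processes the invariant chain of MHC class II, was at 80.7, 64.998, 72.6 and 73.1 CPM and at 200.1, 357 and 478 CPM (log2 fold change 2.26 ± 0.40, adjusted p = 0.00922), and Ctsz at 29.5, 41.4, 42.2 and 38.9 CPM and at 89.01, 149 and 172 CPM (log2 fold change 1.91 ± 0.34, adjusted p = 0.00879). All APP mice were above all WT mice for the 3 cathepsins, and their calls held with any 1 library left out.

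Of the other hydrolases and carriers, 13 of 39 rose, against 2.49% of all genes, and none fell, with a median of 0.29. Hexa, which takes part in degrading gangliosides, was at 59.2, 54.7, 57.5 and 58.4 CPM in WT mice and at 94.9, 125 and 149 CPM in APP mice (log2 fold change 1.11 ± 0.18, adjusted p = 0.00828). Man2b1, a lysosomal α-mannosidase, was at 46.4, 53.4, 55.6 and 60.2 CPM and at 106, 133 and 148 CPM (log2 fold change 1.29 ± 0.23, adjusted p = 0.00879). Dnase2a, the DNase of lysosomes, was at 8.22, 7.92, 8.18 and 7.77 CPM and at 13.9, 14.7 and 16.9 CPM (log2 fold change 0.89 ± 0.17, adjusted p = 0.00879). Creg1 changed less, from 32.9, 33.01, 33.1 and 30.4 CPM to 39.7, 50.97 and 65.7 CPM (log2 fold change 0.68 ± 0.12, adjusted p = 0.00828). The groups did not overlap in any of these, and all 4 calls held with any 1 library left out.

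Membrane proteins of the lysosome rose in 4 of 22, against 2.49% of all genes, and none fell, with a median of 0.30. A positive log2 fold change was found for 18 of the 22. An unadjusted p under 0.05 was found for 13, against 14.4% of all genes. The 4 are also in the lists of disease-associated microglia or myeloid receptor genes. DESeq2 called 6, the 4 with Cd63 (adjusted p = 0.0102) and Slc29a3 (adjusted p = 0.0359), where it called 3.71% of all genes higher. Cd68 was at 9.21, 9.63, 11.5 and 11.2 CPM in WT mice and at 37.6, 65.6 and 71.8 CPM in APP mice (log2 fold change 2.57 ± 0.46, adjusted p = 0.00926), and Laptm5 at 23.3, 29.3, 33.9 and 32.7 CPM and at 86.5, 128 and 146 CPM (log2 fold change 2.03 ± 0.37, adjusted p = 0.00922). Gpnmb was at 2.79, 6.11, 3.54 and 2.83 CPM and at 6.55, 24.6 and 37.1 CPM (log2 fold change 2.68 ± 0.49, adjusted p = 0.00922), its lowest APP mouse being close to the highest WT mouse. Slc11a1, a transporter of metal ions, was at 3.14, 2.74, 3.12 and 1.86 CPM and at 8.46, 17.9 and 24.04 CPM (log2 fold change 2.70 ± 0.51, adjusted p = 0.00993) and kept its call throughout, whereas the other 3 lost theirs without WT replicate 1 (adjusted p up to 0.0526). Lamp1, the main structural protein of the membrane in all cells, did not pass, at 349, 319, 313 and 309.9 CPM and 346, 411 and 446 CPM with an interval of 0.08 to 0.56 for its log2 fold change.

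The proton pump had a median of -0.06, with 2 of 20 subunits higher, against 2.49% of all genes, and none lower. Tcirg1, a subunit a isoform of immune cells and osteoclasts, was at 18.4, 26.5, 27.95 and 25.6 CPM in WT mice and at 37.7, 46.2 and 53.5 CPM in APP mice (log2 fold change 0.90 ± 0.20, adjusted p = 0.0188), and its call was lost without WT replicate 1, 3 or 5 (adjusted p up to 0.0963). Atp6v0d2, an isoform of osteoclasts and macrophages, had no read in WT mice and 0, 0.792 and 1.38 CPM in APP mice, at least 20.9-fold higher against 3 reads over the WT group, while APP replicate 6 also had no read. Its call was lost without APP replicate 4 or any 1 of the WT mice (adjusted p up to 0.0804). The common subunit Atp6v1a had 903, 622, 603 and 612 CPM in WT mice and 514, 565 and 658 CPM in APP mice (log2 fold change -0.26 ± 0.12, adjusted p = 0.321). None of 20 lysosome regulators and autophagy genes passed by edgeR, at a median of 0.03, and 2 had an unadjusted p under 0.05, where 14.4% of all genes did. Of these, Tfeb, a master regulator of lysosomal genes, had 5.48, 8.90, 9.11 and 7.90 CPM and 9.89, 12.6 and 14.1 CPM without overlap (log2 fold change 0.66 ± 0.19, adjusted p = 0.0784) and passed in the fit of the vehicle-treated groups alone (adjusted p = 0.0341) and by DESeq2 (adjusted p = 0.0194), but not without the library labelled APP JQ1 replicate 4 (adjusted p = 0.0660) or once GC content and gene length were corrected for. Tfe3 overlapped, at 41.1, 49.2, 51.8 and 53.99 CPM and 46.02, 53.9 and 62.6 CPM (log2 fold change 0.14 ± 0.11, adjusted p = 0.585).

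Genes of lipid transport rose in 6 of 19 tested, against 2.49% of all genes, with none falling and a median log2 fold change of 0.45. Apoe, the main lipid carrier of the brain, was at 1340.3, 1458, 1456 and 1348 CPM in WT mice and at 1909, 2854 and 3806 CPM in APP mice (log2 fold change 1.04 ± 0.19, adjusted p = 0.00828). APP and WT mice did not overlap and no library left out ended the call. Plin2, a coat protein of lipid droplets, was at 5.63, 4.70, 4.76 and 5.15 CPM and at 6.95, 10.9 and 14.5 CPM (log2 fold change 1.11 ± 0.25, adjusted p = 0.0209), and Msr1, a scavenger receptor, at 0.249, 0.0489, 0.0843 and 0.0845 CPM and at 0.579, 1.65 and 5.12 CPM (log2 fold change 4.07 ± 0.95, adjusted p = 0.0272). Both calls were lost without any 1 of the WT mice, that of Plin2 also without APP replicate 4, with adjusted p up to 0.0902 and 0.117.

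Cholesterol synthesis genes all had a positive log2 fold change, with 3 of 19 called higher, against 2.49% of all genes, and a median of 0.35. Srebf2, the transcription factor of the pathway, was at 163, 184, 183 and 199 CPM in WT mice and at 217, 254 and 262 CPM in APP mice (log2 fold change 0.44 ± 0.09, adjusted p = 0.0127). Sqle, squalene epoxidase, was at 79.9, 58.2, 62.7 and 57.96 CPM and at 86.1, 93.7 and 116 CPM (log2 fold change 0.59 ± 0.14, adjusted p = 0.0348). Groups did not overlap for these genes. The call of Srebf2 was lost with a correction for GC content and length, under which the median of all genes moved from 0.01 to -0.07. It was also lost without WT replicate 1, 3 or 4 (adjusted p up to 0.0732) and that of Sqle without APP replicates 1 to 5 or WT replicate 3, 4 or 5, each alone (up to 0.148).

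Reactive astrocyte genes rose in 9 of 29 tested, against 2.49% of all genes, and none fell, with a median log2 fold change of 1.62. The summed level ran from 769 to 818 CPM in WT mice and from 1973 to 7979 CPM in APP mice. APP replicate 1 was far above the other APP mice, at 10.2 times the WT mean against 2.51 to 5.10 times. Gfap, the filament protein of astrocytes, was at 249, 293, 319 and 321 CPM in WT mice and at 1262, 2498 and 5166 CPM in APP mice (log2 fold change 3.18 ± 0.58, adjusted p = 0.00993). Aspg was at 1.94, 3.72, 3.58 and 1.82 CPM and at 11.9, 27.4 and 61.9 CPM (log2 fold change 3.47 ± 0.54, adjusted p = 0.00828), and Srgn, the proteoglycan serglycin, at 6.13, 5.62, 7.38 and 5.45 CPM and at 11.4, 16.8 and 20.4 CPM (log2 fold change 1.45 ± 0.28, adjusted p = 0.00922). Every APP mouse was above every WT mouse for these 3, and the call of Gfap was lost without WT replicate 1 (adjusted p = 0.0533). C4b and Srgn are also made by other glia or by myeloid cells, so that this list is not one of astrocytes alone. Vim, vimentin, did not pass, at 26.6, 34.04, 44.6 and 32.8 CPM and 53.6, 119 and 452 CPM (log2 fold change 2.24 ± 0.66, adjusted p = 0.109), nor did Serpina3n, at 148, 148, 139 and 151 CPM and 161, 287 and 1018 CPM (log2 fold change 1.40 ± 0.52, adjusted p = 0.221), although neither overlapped between groups. The highest value of both was that of APP replicate 1, more than 3 times the next. Without WT replicate 1, 3, 4 or 5 the list held 3, 4, 5 and 4 calls.

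Of the markers of astrocyte identity, 1 of 19 was called higher, against 2.49% of all genes, and none lower, with a median of 0.19. Those called higher were 4 without the library labelled APP JQ1 replicate 4 (3.32% of all genes), 4 by DESeq2 (3.71%) and 5 in the fit of the vehicle-treated groups alone (3.75%). In all, 5 of the 19 had all APP mice above all WT mice, against 4.94% of all genes. Their summed level overlapped between the groups, from 7577 to 8358 CPM in WT mice and from 7835 to 10059 CPM in APP mice. Sox9, a transcription factor of astrocytes, was at 17.3, 17.2, 16.4 and 21.7 CPM in WT mice and at 25.7, 30.1 and 37.2 CPM in APP mice (log2 fold change 0.78 ± 0.16, adjusted p = 0.0102), and lost its call without WT replicate 1, 3 or 4 (adjusted p up to 0.0526). Aldh1l1 had 47.9, 47.9, 42.5 and 43.4 CPM and 51.4, 61.5 and 96.7 CPM (log2 fold change 0.53 ± 0.16, adjusted p = 0.0966) and passed by DESeq2 (adjusted p = 0.0452). Aqp4, the water channel of astrocyte endfeet, had 92.9, 86.96, 101 and 80.9 CPM and 112, 139 and 187 CPM (log2 fold change 0.65 ± 0.19, adjusted p = 0.0890) and passed without the library labelled APP JQ1 replicate 4 (adjusted p = 0.0376). Neither of the last 2 overlapped between the groups.

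Without the library labelled APP JQ1 replicate 4, the genes called higher were 23 of the disease-associated and 12 of the homeostatic microglia genes, 41 of the myeloid receptors, 9 of the complement genes, and 11 and 6 of those of MHC class I and II. They were 9 of the cytokine genes, 12 of the lysosomal proteases, 13 of the other hydrolases, 5 of the membrane proteins, 2 of the proton pump subunits, 7 of the lipid carriers, 3 of the cholesterol genes, 4 of the astrocyte identity genes and 10 of the reactive astrocyte genes. Over all genes, 3.32% were called higher without that library. In no list did fewer genes pass without it than with it.

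**Figure D4:**
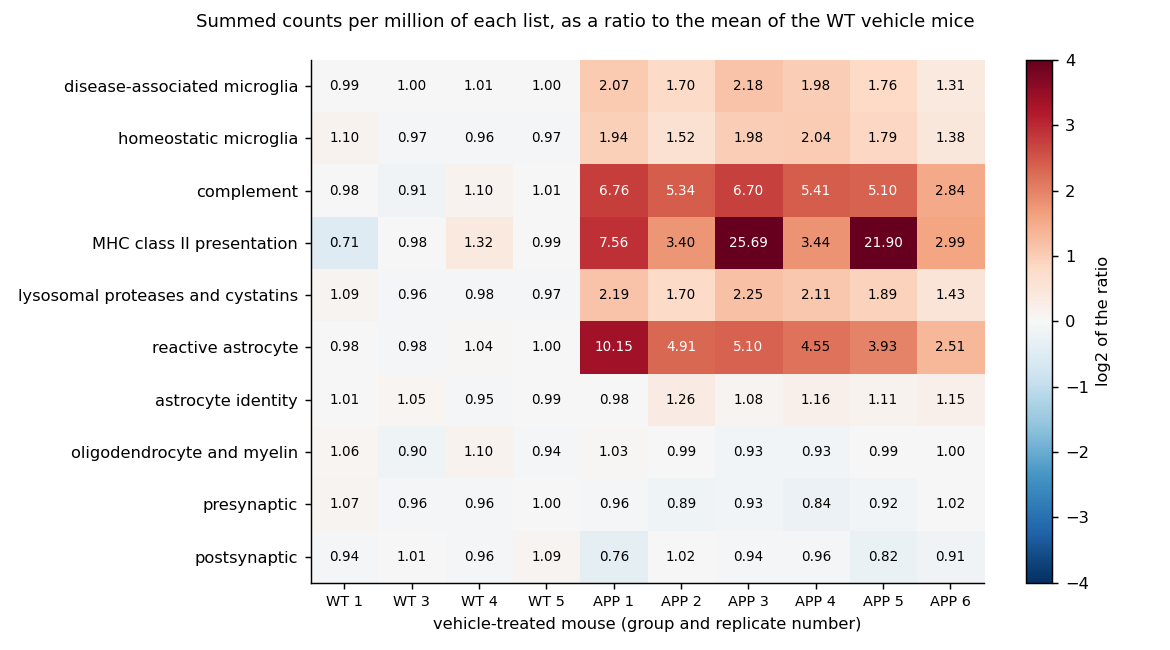
Summed CPM of 10 gene lists in each of the 4 WT and 6 APP vehicle-treated mice, as a ratio to the mean of the WT mice, with the ratio printed in each cell and its log2 as colour. Microglial, complement, MHC class II, protease and reactive astrocyte lists are above the WT mice in all 6 APP mice and lowest in replicate 6, while replicate 1 has the highest reactive astrocyte level (10.15) and replicates 3 and 5 the highest MHC class II levels (25.69 and 21.90).

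Of the listed oligodendrocyte and vascular genes, 1 passed the test. None of 21 oligodendrocyte and myelin genes and none of 8 genes of their precursors passed by edgeR, at medians of -0.02 and 0.16, while 6 and 1 had an unadjusted p under 0.05, where 14.4% of all genes did, and DESeq2 called 1, Trf, and 0. Mbp, myelin basic protein, was at 3132, 2681, 2849 and 2917 CPM in WT mice and at 2762, 2967 and 3174 CPM in APP mice, with an interval of -0.26 to 0.33 for its log2 fold change. Pdgfra, the growth factor receptor of precursors, was at 62.2, 71.8, 67.6 and 68.1 CPM and at 57.2, 65.1 and 76.7 CPM (-0.21 to 0.14), and Cspg4 at 17.7, 25.1, 26.2 and 24.3 CPM and at 26.01, 31.2 and 32.9 CPM (0.03 to 0.74). All 3 overlapped between the groups. Of 20 endothelial, mural and meningeal genes none rose and 1, Slco1c1, fell, against 0.0825% of all genes, at a median of 0.18. Cldn5 and Pecam1, junction proteins of the endothelium, had intervals of -0.05 to 0.48 and -0.13 to 0.48 and overlapping groups, with Cldn5 at 20.2, 21.5, 23.8 and 22.2 CPM and 23.2, 25.3 and 28.3 CPM, and Pecam1 at 15.8, 16.2, 17.8 and 16.6 CPM and 16.4, 16.8 and 24.95 CPM.

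Choroid plexus markers were measured because this tissue lies close to the hippocampus. None of 6 tested passed by edgeR and all had negative log2 fold changes with a median of -1.78, 4 had an unadjusted p under 0.05, against 14.4% of all genes, and DESeq2 called 0. Ttr, transthyretin, was at 21.3, 9.44, 3065 and 12.8 CPM in WT mice and at 3.40, 4.88 and 75.02 CPM in APP mice (log2 fold change -5.55 ± 1.72, adjusted p = 0.133), and Kl at 21.2, 25.04, 63.6 and 24.2 CPM and at 16.6, 20.1 and 28.9 CPM (log2 fold change -0.65 ± 0.29, adjusted p = 0.301). WT replicate 4 was the highest mouse for both, and without it and the library labelled APP JQ1 replicate 4 the log2 fold change of Ttr was 0.18.

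Neuronal markers gave no call at the threshold. None of 8 CA1 pyramidal, 7 dentate granule, 5 CA3 pyramidal, 18 interneuron and 10 general neuronal genes passed by edgeR, and their medians were 0.00, -0.12, -0.41, -0.14 and -0.07. In the same order 1, 0, 0, 3 and 2 had an unadjusted p under 0.05, where 14.4% of all genes did, and DESeq2 called Neurod6 of the CA1 list and 0 of the others. The CA1 marker Wfs1 was at 159.7, 288, 244 and 344 CPM in WT mice and at 268, 308 and 339 CPM in APP mice (log2 fold change 0.25 ± 0.17, adjusted p = 0.552), and Pou3f1 at 49.6, 77.8, 73.7 and 89.98 CPM and at 64.7, 70.5 and 90.7 CPM (log2 fold change 0.01 ± 0.14, adjusted p = 0.988). The dentate markers Prox1 (19.5, 64.3, 75.003 and 58.002 CPM in WT, 32.8, 46.1 and 77.6 CPM in APP mice) and Dsp (4.78, 34.8, 33.3 and 34.7 CPM and 1.90, 21.6 and 56.96 CPM) varied widely within both groups, and WT replicate 1 was the lowest WT mouse for both. Of the CA3 markers, Iyd was at 3.44, 1.03, 1.35 and 1.01 CPM and at 0.265, 0.439 and 1.89 CPM, and Bok at 53.8, 14.4, 13.4 and 11.5 CPM and at 9.002, 17.9 and 23.7 CPM, with WT replicate 1 the highest. The markers of neighbouring regions thus differed between mice of 1 group, and their part in the other results was not tested.

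Among interneuron genes, Gad1, an enzyme of GABA synthesis, was at 384, 382, 362 and 398 CPM in WT mice and at 277, 298 and 362 CPM in APP mice, where the highest APP mouse was just under the lowest WT mouse, without a call (log2 fold change -0.29 ± 0.11, adjusted p = 0.226), and Gad2 was at 169, 154, 139.6 and 155 CPM and at 119, 145 and 177 CPM with overlap (log2 fold change -0.09 ± 0.12, adjusted p = 0.774). Rbfox3, the neuronal marker NeuN, was at 196, 236, 248 and 256 CPM and at 216, 237 and 272 CPM, and Tubb3 at 301, 272, 270.04 and 292 CPM and at 228, 288 and 325 CPM. Their log2 fold changes had intervals of -0.18 to 0.25 and -0.29 to 0.24. Neurod6, a transcription factor of pyramidal neurons named here after its values were seen, was at 350.4, 251, 229.5 and 296 CPM and at 177, 197 and 231 CPM (log2 fold change -0.49 ± 0.13, adjusted p = 0.0599). It passed without the library labelled APP JQ1 replicate 4 (adjusted p = 0.0286).

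Of 82 presynaptic and postsynaptic genes tested, none rose or fell at the threshold by edgeR, with a median log2 fold change of -0.08, and 17 (20.7%) had an unadjusted p under 0.05, against 14.4% of all genes. Of the 17, 16 had a negative log2 fold change, where 5.01% of all genes passed unadjusted in that direction. In 8 of the 82 (9.76%) all APP mice were below all WT mice, against 2.05% of all genes, and in 0 they were above. Without the library labelled APP JQ1 replicate 4, 1 was lower (0.224% of all genes), and 3 were lower in the fit of the vehicle-treated groups alone (0.377%) and 3 by DESeq2 (0.581%). Syn1, a phosphoprotein of synaptic vesicles, was at 395, 437, 439.7 and 463 CPM in WT mice and at 378, 448 and 479.9 CPM in APP mice, with an interval of -0.23 to 0.26 for its log2 fold change. Syn2 was at 819.8, 642, 632 and 634 CPM and at 543, 639 and 766 CPM (-0.33 to 0.14). Of the postsynaptic scaffolds, Dlg1 was at 135, 117, 122 and 106 CPM and at 106, 120.2 and 138 CPM (-0.18 to 0.21) and Dlg2 at 215, 223, 207 and 203 CPM and at 142, 165 and 234 CPM (-0.53 to -0.01). These 4 genes overlapped between the groups. Gria2, 1 of the 8 that did not, the AMPA receptor subunit that limits calcium entry, was named after its values were seen, and was at 1346, 1103, 1026 and 1066 CPM and at 650.2, 791 and 942 CPM (log2 fold change -0.52 ± 0.15, adjusted p = 0.0692). It was the gene that passed without the library labelled APP JQ1 replicate 4 (adjusted p = 0.0424), and in the fit of the vehicle-treated groups it passed as did the GABA-A receptor gene Gabra5 (log2 fold change -0.58 ± 0.18 over all 3 groups, adjusted p = 0.0388 in that fit). By DESeq2 the 3 were Gria2, Gria3 and Gabra5, with adjusted p of 0.0171, 0.0450 and 0.0339.

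None of 22 activity-regulated genes and none of 23 neuropeptides and granins passed by edgeR, at medians of 0.07 and -0.06, while 0 and 1 had an unadjusted p under 0.05, where 14.4% of all genes did, and DESeq2 called 0 of either. Fos, an immediate early gene, was at 20.5, 16.7, 5.06 and 26.7 CPM in WT mice and at 6.84, 18.7 and 61.3 CPM in APP mice (log2 fold change 0.38 ± 0.56, adjusted p = 0.808), and Fosb at 7.97, 7.78, 6.37 and 7.73 CPM and at 3.07, 6.38 and 17 CPM (log2 fold change 0.05 ± 0.35, adjusted p = 0.963). Penk, the precursor of enkephalins, was at 26.6, 35.3, 38.4 and 38.6 CPM and at 24.2, 31.2 and 231 CPM (log2 fold change 0.90 ± 0.80, adjusted p = 0.657), and Pdyn, that of dynorphins, at 3.39, 11.4, 15.7 and 8.96 CPM and at 6.67, 11.1 and 16.3 CPM (log2 fold change 0.17 ± 0.34, adjusted p = 0.865). APP replicate 1 had the highest Fos, Fosb and Penk of all 10 mice.

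Of the 14 genes called lower, 13 fell by less than 2-fold and did not overlap between the groups. Dpf3, a subunit of chromatin remodelling complexes, fell the most of these 13, from 7.22, 4.79, 4.72 and 4.14 CPM in WT mice to 2.26, 2.46 and 3.31 CPM in APP mice (log2 fold change -0.97 ± 0.21, adjusted p = 0.0138), and its call was lost without WT replicate 1 (adjusted p = 0.0886). Gpr37, a receptor of oligodendrocytes and neurons (chr6:25665878-25690729), fell from 90.7, 81.5, 78.9 and 87.5 CPM to 51.4, 62.3 and 73.6 CPM (log2 fold change -0.45 ± 0.09, adjusted p = 0.0102). It was the gene of the 14 whose call held with each of the 10 libraries left out. Myo5b, a motor of membrane traffic, fell from 140.1, 96.5, 99.3 and 97.6 CPM to 53.5, 68.5 and 81.8 CPM (log2 fold change -0.67 ± 0.16, adjusted p = 0.0327), and WT replicate 1 was well above the other WT mice. Apln, the peptide apelin, fell from 18.4, 18.9, 19.6 and 20.995 CPM to 9.59, 12.1 and 16.1 CPM (log2 fold change -0.67 ± 0.16, adjusted p = 0.0319). Cep83os, an RNA from the strand opposite to Cep83, fell from 30.4, 29.6, 31.1 and 30.8 CPM to 15.1, 18.9 and 25.7 CPM (log2 fold change -0.66 ± 0.17, adjusted p = 0.0377), and no source used here states that the counting used strand, so its reads cannot be told apart from those of overlapping genes.

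Slco1c1, which carries thyroid hormone across the blood-brain barrier, fell from 70.9, 68.9, 89.04 and 71.5 CPM to 46.6, 54.2 and 60.7 CPM (log2 fold change -0.47 ± 0.11, adjusted p = 0.0253), and WT replicate 4, with the choroid plexus markers, was its highest WT mouse. St6gal2, a sialyltransferase, fell from 30.6, 29.002, 28.04 and 28.2 CPM to 18.4, 21.2 and 23.6 CPM (log2 fold change -0.47 ± 0.11, adjusted p = 0.0224), and Luzp2 from 39.8, 33.9, 32.9 and 32.2 CPM to 20.97, 22 and 28.98 CPM (log2 fold change -0.57 ± 0.15, adjusted p = 0.0416). For these 3 every APP mouse was below every WT mouse. Slitrk3, an adhesion protein of inhibitory synapses, fell from 101, 109, 108 and 103 CPM to 67.9, 76.4 and 96.4 CPM (log2 fold change -0.43 ± 0.11, adjusted p = 0.0413), the highest APP mouse being replicate 2 and close to the lowest WT mouse. Cpne8, a calcium-binding copine, fell from 47.9, 45.1, 43.9 and 49.9 CPM to 31.1, 33.7 and 37.8 CPM (log2 fold change -0.45 ± 0.12, adjusted p = 0.0474). Omg, the oligodendrocyte myelin glycoprotein, which is also made by neurons, fell from 150.02, 143, 135 and 151 CPM to 102, 115 and 129.7 CPM (log2 fold change -0.33 ± 0.08, adjusted p = 0.0406). The APP mice lay below the WT mice in each of these genes as well. The calls of Cep83os, Luzp2, Cpne8 and Omg did not hold once GC content and gene length were corrected for, and that of Omg was lost also in the fit of the vehicle-treated groups alone (adjusted p = 0.0591).

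Atg4c, a protease of autophagy, fell from 60.9, 49.6, 46.6 and 48.2 CPM to 37.9, 39.9 and 40.7 CPM (log2 fold change -0.37 ± 0.09, adjusted p = 0.0364). Relative to its level, it had the narrowest range among APP mice of the 14. Tmeff1, a transmembrane protein of neurons, fell from 121, 109, 100.4 and 113 CPM to 81.8, 89.3 and 94.7 CPM (log2 fold change -0.33 ± 0.08, adjusted p = 0.0253). Calml4, the one with overlapping groups, was at 1.69, 0.0978, 5.31 and 0.380 CPM and at 0, 0.211 and 0.446 CPM (log2 fold change -3.07 ± 0.80, adjusted p = 0.0499), its highest value being in WT replicate 4, and it was not called without that mouse or without the library labelled APP JQ1 replicate 4. The other 13 were called lower without that library too. Without WT replicate 1, 3, 4 or 5 the genes called lower were 1, 5, 7 and 7, and without APP replicate 1, 3 or 5 they were 6, 8 and 9. Apart from Gpr37 and Dpf3, each of the 14 lost its call with at least 4 of the 10 libraries left out in turn, WT replicate 1 included in every case, with adjusted p up to 0.168 for Cpne8 and 0.320 for Calml4.

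**Figure D5:**
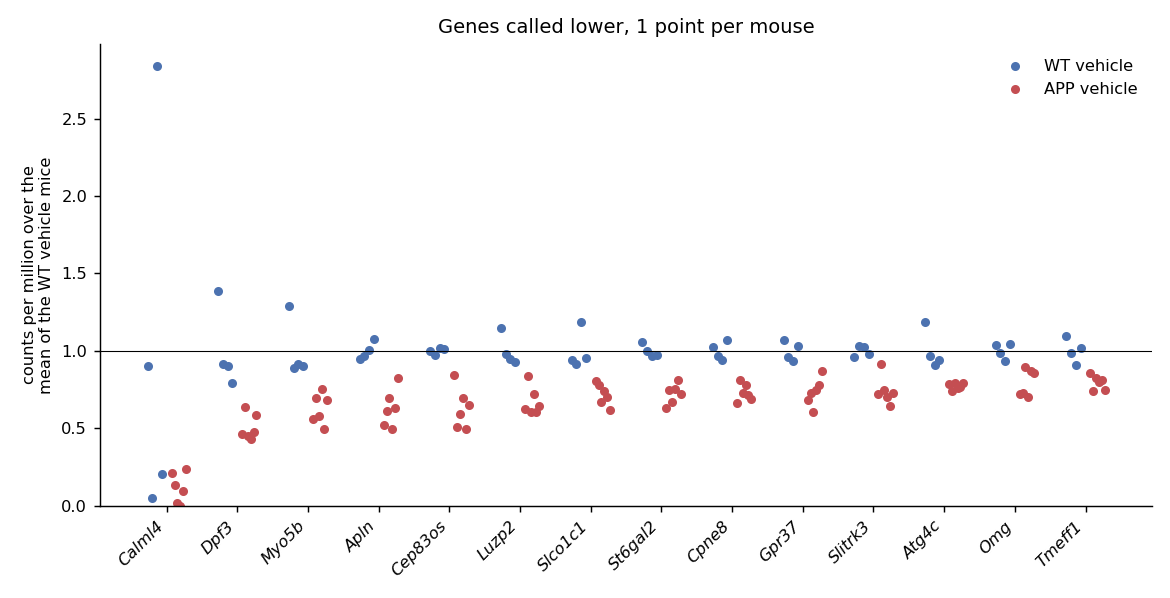
CPM of the 14 genes called lower, in each of the 4 WT (blue) and 6 APP (red) vehicle-treated mice, divided by the mean of the WT mice, ordered by fold change. All APP mice lie below all WT mice for 13 genes, and Calml4 has overlapping groups with 1 WT mouse, replicate 4, far above the rest.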

How the data were processed

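RNA of the CA1 region was sequenced by the study, and the authors deposited a table of raw read counts per mouse gene for each mouse. The submitters' processing notes name CASAVA 1.8.2, STAR, HTSeq, TopHat, Cufflinks, Cuffdiff and mm10, without saying which made the counts. By the study's methods, STAR aligned the reads to mm10 and HTSeq made the counts. Whether the counting used strand is not given in the sources used here. Reads of human transgenes that align to mouse genes would add to those counts. The labels say only that the mice are separate samples of a group, so p-values measure the spread between these samples.

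Counts were analysed with edgeR 4.0.16 in R 4.3.3 (TMM, filterByExpr, robust quasi-likelihood fit) over 16 aged samples in 3 groups, with Benjamini-Hochberg adjustment over 16962 genes and a threshold of 0.05. The steps were tested on simulated counts. Single genes were also compared by an exact two-sided permutation test of the mean CPM. DESeq2 1.42.0, RLE scaling, other filters, the vehicle-treated groups alone, a GC and length correction, a replicate block and fits without each library were alternatives, and fits without the library labelled APP JQ1 replicate 4 were added after seeing the data. Promoter sequences came from RefSeq on GRCm38.p6, and gene positions from GENCODE M21 on the same build as mm10.

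The members and gene lists were chosen with earlier results of these data known. Named genes were the marker genes Cst7, Trem2 and Tyrobp, the transgene genes, the 12 largest rises and up to 20 falls whose groups did not overlap, and in each list up to 4 called members of smallest p, or the first members where fewer than 2 were called. Calml4, Neurod6, the receptor genes Gria2, Gria3 and Gabra5, and the uncalled members named beside a list, were added after their values were seen. Some genes that the rule selects are not reported here.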

Additional observations from a re-analysis of the deposited data

Results flagged for a closer look

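Of 124 groups of samples examined for a single mouse far from the rest by Dixon's criterion, 18 had one. The criterion flags about 5% of groups by chance if values are independent and normal. These groups share mice and genes, so the count cannot be set against that share. In 8 of the single-gene and summed levels this mouse was WT replicate 1. It had Myo5b at 140 CPM against 96.5 to 99.3 CPM in the other WT mice, and the highest summed CPM of homeostatic microglia genes (2205), lysosomal proteases (3254), lysosomal membrane genes (1629), lysosome regulators (3029), cholesterol synthesis genes (1319.8), CA3 markers (263) and general neuronal genes (8608). WT replicate 4 had the choroid plexus markers at 3213 CPM against 38.6 to 49.3 CPM, Slco1c1 at 89.0 CPM against 68.9 to 71.5 CPM, and Gm49339 at 0.127 CPM. WT replicate 5 had the transgene genes at 3124 CPM against 2863 to 2894 CPM, and the single WT read of Cd200r4 and that of Cd300lb, each 0.0422 CPM. A single read beside WT mice with no read is always flagged.

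In the APP group, replicate 1 had reactive astrocyte genes at 7979 CPM against 1973 to 4004 CPM and cholesterol synthesis genes at 1837 CPM against 1362 to 1522 CPM. APP replicate 4 had choroid plexus markers at 101 CPM against 27.8 to 46.6 CPM, and APP replicate 2 had Slitrk3 at 96.4 CPM against 67.9 to 78.5 CPM. The causes were not tested.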

How the results depend on the processing

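The count of 436 genes called was 798 by DESeq2 (690 higher and 108 lower, 86.5% of calls higher against 96.8%), 679 with only the vehicle-treated groups in the fit (62 lower), 35 with a replicate block (34 higher, 1 lower) and 85 with the block and a GC and length correction (80 and 5). Genes called lower were 23 with RLE size factors, 44 with the GC and length correction, 38 of 601 (563 higher) without the library labelled APP JQ1 replicate 4 and 24 without it and WT replicate 4. Leaving out 1 mouse gave 154 to 508 calls, 153 to 492 higher and 1 to 16 lower. Disease-associated microglia genes called were 2 with the block, 4 with block and correction, and 14 to 25 with a mouse left out. Lysosomal genes were 1, 3 and 17 to 32. Reactive astrocyte genes were 14 by DESeq2, 5 with no filter on low counts, 0 with the block, 1 with block and correction, and 3 to 11 with a mouse left out. Synaptic genes called lower were 3 by DESeq2, 3 with the vehicle-treated groups alone and 1 without the library labelled APP JQ1 replicate 4, and 0 with any mouse left out. The causes were not tested. The replicate numbers share no stated animal, litter or day, and deviations of same-numbered mice correlated at -0.198 to 0.148, so they were not taken as pairs.

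The log2 fold changes that reversed were all of genes not called. With the GC and length correction they were -0.0004 for Tfe3, -0.115 for Mbp, -0.0007 for Cldn5, -0.2119 for Pou3f1, -0.156 for Rbfox3, -0.1984 for Syn1 and -0.1401 for Fosb. With the replicate block they were -0.0216 for Mbp, 0.0074 for Tubb3, -0.0327 for Dlg1 and -0.0467 for Fosb, and with block and correction -0.1345 for Mbp, -0.0031 for Cldn5, -0.151 for Pou3f1, -0.1096 for Rbfox3, -0.1834 for Syn1 and -0.2028 for Fosb. By DESeq2 and RLE size factors they were -0.0082 and -0.0081 for Pou3f1, -0.0005 and -0.0005 for Syn1, and -0.0027 and -0.0029 for Dlg1, and with no filter -0.0079, -0.0011 and -0.0039 for these 3. Without the library labelled APP JQ1 replicate 4 it was -0.0044 for Pou3f1, and without it and WT replicate 4 the values were 0.1844 for Ttr, -0.001 for Pou3f1, 0.0994 for Prox1 and -0.0301 for Fosb. With 1 mouse left out the ranges were -0.0062 to 0.0636 for Mbp, -0.0924 to 0.0026 for Pdgfra, -7.2212 to 0.1842 for Ttr, -0.1494 to 0.1259 for Pou3f1, -0.3734 to 0.0993 for Prox1, -0.5521 to 0.1284 for Dsp, -0.6437 to 0.4039 for Bok, -0.053 to 0.0799 for Rbfox3, -0.0738 to 0.0155 for Tubb3, -0.0387 to 0.046 for Syn1, -0.046 to 0.0622 for Dlg1, -0.2302 to 0.6729 for Fos, -0.3437 to 0.2065 for Fosb, -0.1458 to 1.0633 for Penk, -0.1213 to 0.475 for Pdyn, -0.1696 to 0.0134 for Dlg4 and -0.6193 to 0.31 for Atp6v0c. Of 112 named genes that were called, 112 were called by DESeq2, 111 with RLE size factors, all but 7 with the GC and length correction, 100 with no filter on low counts, 18 with the block and between 57 (without WT replicate 1) and 109 (without APP replicate 6) with a mouse left out. In a library with 0 reads of a gene, a level of up to 3 reads is not detectable at this depth.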

Other observations

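Genes outside the lists, chosen after their values were seen, are given as values. Among receptors and ligands that restrain or stimulate T cells and myeloid cells, Vsir had a log2 fold change of 1.59, adjusted p = 0.00828, Cd86 1.90, adjusted p = 0.00828, Pdcd1 3.23, adjusted p = 0.00993, Lag3 2.26, adjusted p = 0.00993, Cd274 1.92, adjusted p = 0.0116 and Havcr2 1.95, adjusted p = 0.0188, by edgeR, and the groups did not overlap in any of them. The calls of Vsir and Cd86 held with any 1 library left out. Those of Pdcd1, Lag3, Cd274 and Havcr2 were lost without WT replicate 1, that of Cd274 also without WT replicate 4 and that of Havcr2 without any 1 of the WT mice (adjusted p up to 0.0504, 0.0585, 0.0643 and 0.0937). For 4 transcription factors all APP mice were above all WT mice and the calls held with any 1 library left out, with log2 fold changes of 1.27, adjusted p = 0.00828 for Cebpa, 1.48, adjusted p = 0.00828 for Ikzf1, 2.08, adjusted p = 0.00879 for Runx1 and 1.54, adjusted p = 0.00828 for Irf5.

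The smallest adjusted p of all genes tested was that of Mlxipl, which encodes the glucose-responsive factor ChREBP, at 5.08, 5.62, 6.66 and 7.48 CPM in WT mice and 11.8, 14.6 and 18.5 CPM in APP mice (log2 fold change 1.27 ± 0.16, adjusted p = 0.00573). Top2a, a topoisomerase of dividing cells, was at 0.498, 0.587, 0.337 and 0.380 CPM and at 1.24, 1.71 and 3.71 CPM (log2 fold change 2.24 ± 0.51, adjusted p = 0.0207), and its call was lost without any 1 of the WT mice (adjusted p up to 0.0888).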
